A study of Mus musculus with 17 samples.

Results

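The genes described here are 8 genes listed for leukocyte adhesion, measured in microvessels isolated from mouse cerebral cortex. They are the integrin subunits Itgam, Itgal, Itgb2, Itga4 and Itgb7, and the intracellular integrin activators Fermt3, Fermt1 and Tln1. They were chosen by symbol as the beta-2 and alpha-4 integrins and their activators, with earlier results of these data known. They are 8 of the 42687 genes in the deposited count table. All 8 passed the filter on low counts, which left 18753 genes to be tested. Mice aged 10 to 11 months were either WT (wild type) or APP/PS1 transgenic, a model of the amyloid pathology of Alzheimer's disease. Over 2 weeks each was injected intraperitoneally with 10 mg/kg of a peptide once per 2 days, so no group was untreated. The peptide was either gp91-ds-tat, an inhibitor of the superoxide-producing NADPH oxidase NOX2, or sgp91-ds-tat, its control. The sample labels write NOX2 or SC for the peptide, and these were read as inhibitor and control. The groups were WT with control peptide (n = 5), WT with inhibitor (n = 5), APP/PS1 with control peptide (n = 2) and APP/PS1 with inhibitor (n = 5), 17 libraries in all. The labels name the cells as endothelial, pericyte and astrocytic endfeet, and do not say which promoter drives the transgenes or whether each library came from 1 animal. The p-values therefore measure the spread between these libraries, which may be partly technical.

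Integrins are pairs of an alpha and a beta subunit that sit in the plasma membrane and bind ligands only after activation from inside the cell. In leukocytes rolling along a vessel wall, chemoattractant signals bring talin (Tln1) and kindlin-3 (Fermt3) to the tail of the beta subunit, the integrin opens, and the cell stops. Itgb2 (CD18) pairs with Itgam (CD11b) to form Mac-1 and with Itgal (CD11a) to form LFA-1, which bind ICAM proteins on endothelium. Itga4 pairs with Itgb1 to form VLA-4, which binds VCAM-1, or with Itgb7, whose pair binds MAdCAM-1. Microglia, the resident macrophages of the brain, also carry Itgam and Itgb2. The series title is about the arrest of neutrophils in brain capillaries, and Itgam, Itgal, Itgb2, Fermt3 and Tln1 encode adhesion machinery for such arrest.

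Total counts per library ranged from 7316503 to 17862965, with a median of 11342154. The transgene labels were checked with Prnp, which was at 682 to 1418 CPM (counts relative to the TMM-scaled size of a library) in APP/PS1 and at 301 to 555 CPM in WT, without overlap. App was at 1897 to 3334 CPM in APP/PS1 and at 1262 to 2230 CPM in WT. The 10 endothelial markers summed to 2606 to 4779 CPM, 9 pericyte and smooth muscle markers to 1160 to 1990 CPM, and 6 astrocyte markers to 2952 to 5092 CPM, which are the labelled cells. The 6 neuron markers summed to 2474 to 4162 CPM and 10 homeostatic microglia markers to 251 to 526 CPM. Other brain cells thus contributed RNA. The 5 choroid plexus markers summed to 29.4 CPM in WT control replicate 1 and up to 8097 CPM in WT control replicate 4. The labels give no sex, and the libraries fell apart in sex-linked RNA. The Y-linked genes Ddx3y, Eif2s3y, Kdm5d and Uty summed to 294 to 355 CPM in 7 libraries (5 of 10 WT, 2 of 7 APP/PS1) and to 0 to 22.6 CPM in the other 10. In all, 8 libraries (4 WT, 4 APP/PS1) held more than 5 CPM of these Y-linked genes together with more than 100 CPM of Xist. Xist is the RNA of the inactive X chromosome, and the source of this mixture was not tested. Mixed were 3 of 5 WT control, 1 of 5 WT inhibitor, 1 of 2 APP/PS1 control and 3 of 5 APP/PS1 inhibitor libraries. The unmixed libraries thus include 1 for APP/PS1 control. The genotype test was refitted in the remaining 9 libraries, and values from that fit are given below for the members and for the called genes of the microglia, neutrophil and pathway lists, of which Itgax alone kept its call.

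The positions of the members, in the annotation GENCODE vM21 on GRCm38, are as follows. Itgam (ENSMUSG00000030786) lies at chr7:128062640-128118491 on the plus strand, and Itgal (ENSMUSG00000030830) lies nearby at chr7:127296260-127335138 on the same strand. Itgb2 (ENSMUSG00000000290) lies at chr10:77530252-77565708 on the plus strand. Itga4 (ENSMUSG00000027009) lies at chr2:79255426-79333123 on the plus strand, and Itgb7 (ENSMUSG00000001281) at chr15:102215995-102231944 on the minus strand. Fermt3 (ENSMUSG00000024965) lies at chr19:6998958-7019469, Fermt1 (ENSMUSG00000027356) at chr2:132904389-132945906 and Tln1 (ENSMUSG00000028465) at chr4:43531519-43562691, all on the minus strand. All are protein-coding genes measured over their exons. Of the 5024 exon bases of Itgam, 3450 are shared with the overlapping gene model Gm49368 on the same strand. Gm49368 is a row of the count table and held 1 count in all 17 libraries together. How reads in shared bases were counted is not given in the sources used here, so the level of Itgam relative to other genes is uncertain, whereas each library was counted against the same gene models.

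The 250 bases upstream of the annotated start were read from RefSeq (GRCm38.p6) for 6 of the 8 members, and the windows of 3 are shown: Itgam, a member that differed between genotypes, and Itga4 and Fermt3, which did not pass the test. Capitals mark matches to GAGGAA on either strand (TTCCTC on the other), the purine-rich core to which the myeloid factor PU.1 binds. The windows are chr7:128062390-128062639 (plus strand), chr2:79255176-79255425 (plus strand) and chr19:7019470-7019719 (minus strand).
Itgam: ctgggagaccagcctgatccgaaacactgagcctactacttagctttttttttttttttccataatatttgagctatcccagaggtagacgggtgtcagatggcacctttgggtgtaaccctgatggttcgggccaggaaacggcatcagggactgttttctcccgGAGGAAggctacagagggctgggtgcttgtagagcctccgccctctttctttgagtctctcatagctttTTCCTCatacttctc
Itga4: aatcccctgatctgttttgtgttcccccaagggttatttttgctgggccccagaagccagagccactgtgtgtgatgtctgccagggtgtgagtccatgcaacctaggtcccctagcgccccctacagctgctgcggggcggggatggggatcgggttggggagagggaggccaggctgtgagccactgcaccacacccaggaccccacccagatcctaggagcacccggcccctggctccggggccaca
Fermt3: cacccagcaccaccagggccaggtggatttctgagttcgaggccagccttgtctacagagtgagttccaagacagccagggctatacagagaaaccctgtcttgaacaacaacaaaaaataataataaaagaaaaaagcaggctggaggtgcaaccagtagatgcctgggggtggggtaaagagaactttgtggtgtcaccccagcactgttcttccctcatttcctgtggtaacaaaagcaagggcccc
The window of Itgam held 2 matches, which begin 84 and 15 bases upstream of the start. Tln1 held 1, which begins 71 bases upstream, and the windows of Itga4, Itgb7, Fermt3 and Fermt1 held none. Of 32851 promoters of the same length, 23.3% held at least 1 match. A match is a description of the letters only. Itgal and Itgb2 were not searched.

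The members covered a wide range of levels. Per kb of exon, averaged over the 17 libraries, the talin gene Tln1 was highest at 20.2 CPM per kb ± 3.62 (SD, n = 17). Itga4 followed at 3.79 ± 0.648, Itgb2 at 2.51 ± 0.932, Fermt3 at 0.930 ± 0.221, Itgam at 0.623 ± 0.256, Itgal at 0.306 ± 0.147, Itgb7 at 0.264 ± 0.142 and Fermt1 at 0.157 ± 0.0465 CPM per kb (SD, n = 17 for each). Tln1 stood above Itga4, and Itgb2 above Fermt3, in all 17 libraries. Itga4 stood above Itgb2 in 14 libraries, Fermt3 above Itgam in 16 and Itgam above Itgal in 15. Itgal stood above Itgb7 in 13 libraries and Itgb7 above Fermt1 in 11, so the order at the low end was not fixed across libraries. Over the exon bases that no other gene shares, which are 1574 for Itgam, Itgam was at 1.99 CPM per kb ± 0.816 (SD, n = 17) and stood above Fermt3 in 16 of 17 libraries. The place of Itgam in the order therefore depends on how shared bases were counted. This length was chosen after seeing the data.

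Itgam and Itgb2, the subunits of Mac-1, were higher in APP/PS1 microvessels than in WT microvessels. In bulk samples such as these, more cells of a type and more RNA per cell cannot be told apart. Itgam was at 1.91, 2.30, 2.13, 3.48 and 1.46 CPM in the WT control libraries and at 2.43, 4.02, 1.44, 2.08 and 2.10 CPM in the WT inhibitor libraries. It was at 6.0 and 4.41 CPM in the APP/PS1 control libraries and at 4.17, 3.84, 3.47, 3.27 and 4.67 CPM in the APP/PS1 inhibitor libraries. Of the 10 WT libraries, 8 lay below the lowest APP/PS1 library, and WT control replicate 4 and WT inhibitor replicate 2 lay within the APP/PS1 range. Averaged by genotype, Itgam was at 2.34 CPM ± 0.822 (SD, n = 10) in WT, against 4.26 CPM ± 0.915 (SD, n = 7) in APP/PS1. These levels rest on 14 to 99 counts per library.

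Itgb2, the beta subunit that Mac-1 and LFA-1 have in common, was at 6.71, 4.61, 5.59, 7.77 and 5.33 CPM in WT control and at 5.61, 7.26, 5.92, 5.85 and 4.82 CPM in WT inhibitor libraries. It was at 9.04 and 13.1 CPM in APP/PS1 control and at 6.51, 13.1, 7.71, 8.26 and 12.9 CPM in APP/PS1 inhibitor libraries. The 3 APP/PS1 libraries near 13 CPM stood far above the rest, while the lowest APP/PS1 library lay below 3 of the 10 WT libraries. The WT libraries averaged 5.95 CPM ± 1.02 (SD, n = 10), against 10.1 CPM ± 2.87 (SD, n = 7) for APP/PS1.

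With genotype tested over both peptides, the log2 change of Itgam was 0.88 ± 0.20 (SE), a fold of 1.83, with an edgeR quasi-likelihood adjusted p of 0.0456. The log2 change of Itgb2 was 0.77 ± 0.16 (SE), a fold of 1.71, with an edgeR adjusted p of 0.0187. Thus 2 of 8 members were higher and 0 lower, where 0.56% of the 18753 genes were called higher in APP/PS1. Since the members were chosen with earlier results of these data known, this comparison is a description only. The median log2 change of the 8 members was 0.23, beside 0.0017 over all genes tested. For no member were the genotypes free of overlap in CPM, beside 0.272% of all genes. The call of Itgam was near the threshold: when 1 library at a time was left out, it was kept in 3 of 17 refits (those without WT control replicate 4, WT inhibitor replicate 2 or APP/PS1 inhibitor replicate 4), and its adjusted p rose to 0.266 without APP/PS1 control replicate 1. The call of Itgb2 was lost without WT inhibitor replicate 5 (edgeR adjusted p = 0.0548), APP/PS1 control replicate 2 (0.133) or APP/PS1 inhibitor replicate 2 (0.0533). In the 9 libraries without mixed sex-linked RNA, the log2 changes were 0.73 for Itgam and 0.32 for Itgb2 (edgeR adjusted p = 0.743 and 0.755).

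Itgal, the alpha subunit of LFA-1 and a partner of Itgb2, did not pass the test. It was at 1.27, 1.78, 2.95, 4.38 and 2.30 CPM in WT control, at 1.22, 2.07, 1.17, 1.82 and 1.32 CPM in WT inhibitor, at 1.64 and 2.91 CPM in APP/PS1 control, and at 1.20, 3.32, 2.17, 0.454 and 2.21 CPM in APP/PS1 inhibitor libraries. The highest value was in a WT library and the lowest in an APP/PS1 library, and the genotypes overlapped over most of their range. The log2 change for genotype was 0.12 ± 0.32 (SE), with an edgeR adjusted p of 0.997 and a 95% interval of -0.54 to 0.78.

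**Figure D1:**
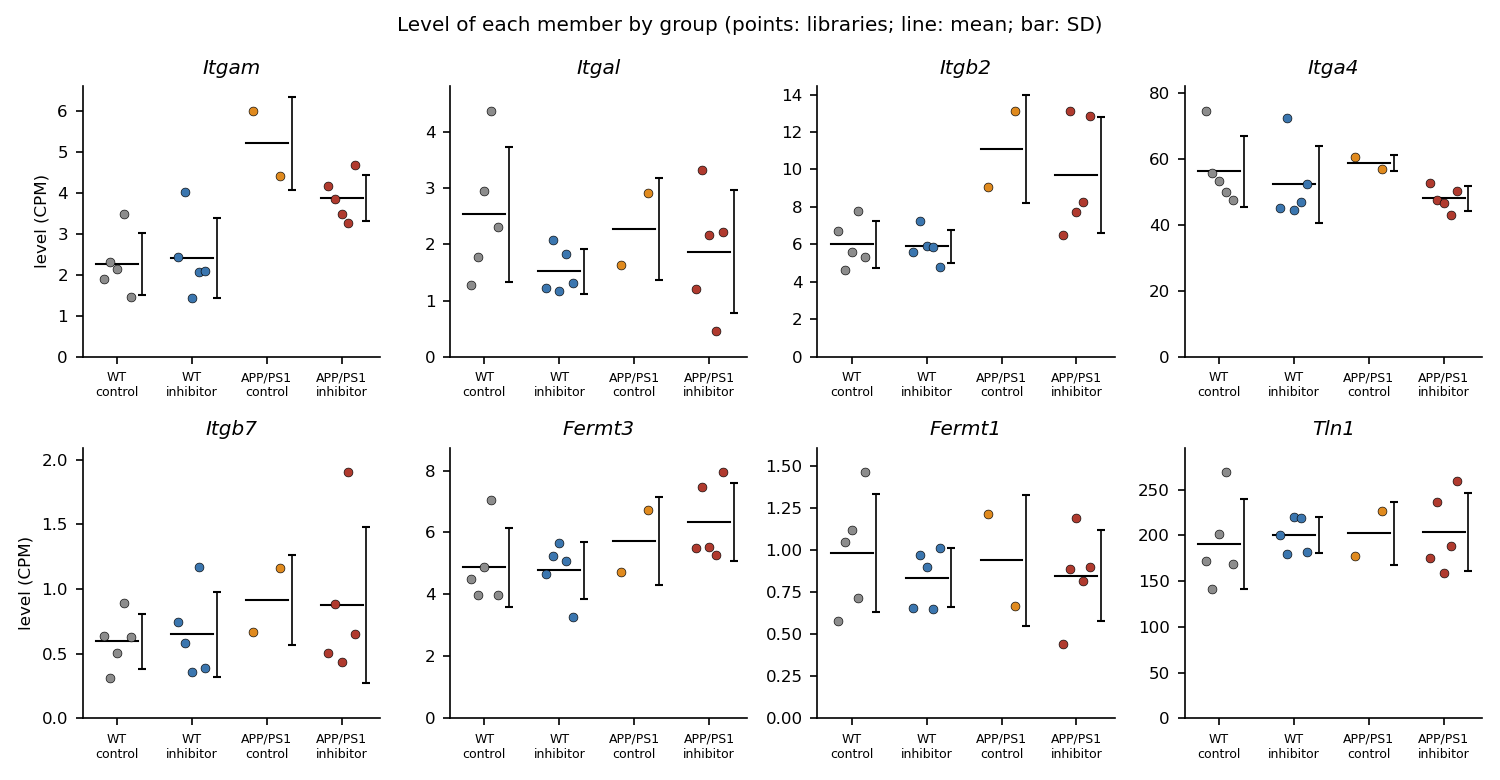
Level of the 8 members in CPM (vertical axes, from 0) in the 4 groups. Points are libraries, lines are group means and bars are 1 SD. Itgam and Itgb2 sit higher in APP/PS1 than in WT with overlapping libraries, and the other 6 genes overlap across the groups.

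The alpha-4 integrin subunits did not pass the test for genotype. Itga4 had a median of 51.2 CPM in WT (lowest 44.6, highest 74.6) and of 50.2 CPM in APP/PS1 (lowest 43.0, highest 60.5). The 2 highest values, 74.6 and 72.3 CPM, were in WT control replicate 1 and WT inhibitor replicate 2, and the remaining 15 libraries lay between 43.0 and 60.5 CPM. Its log2 change for genotype was -0.06 ± 0.11 (SE), with a 95% interval of -0.28 to 0.17 (edgeR adjusted p = 0.994). Itgb7, the partner of Itga4 in gut-homing lymphocytes, was at 0.314 to 1.17 CPM in WT and 0.434 to 1.91 CPM in APP/PS1, on 3 to 21 counts per library. Its log2 change for genotype was 0.51 ± 0.33 (SE), with a wide 95% interval of -0.17 to 1.20 (edgeR adjusted p = 0.889).

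Among the activators, Fermt3 (kindlin-3), the kindlin of blood cells, had the next largest genotype difference by p. It was at 4.51, 3.98, 4.88, 7.06 and 3.97 CPM in WT control, at 4.67, 5.25, 5.66, 5.07 and 3.26 CPM in WT inhibitor, at 4.73 and 6.74 CPM in APP/PS1 control, and at 5.5, 7.45, 5.54, 5.26 and 7.95 CPM in APP/PS1 inhibitor libraries. The 2 highest libraries were APP/PS1, and the third was WT control replicate 4. The log2 change of Fermt3 was 0.34 ± 0.15 (SE, 95% interval 0.03 to 0.66), with an unadjusted p of 0.0358 and an edgeR adjusted p of 0.722, so it was not called. Itgam, Itgb2 and Fermt3 were the 3 members with an unadjusted p under 0.05. By edgeR p, Itgb2 ranked 79, Itgam 107 and Fermt3 928 among the 18753 genes tested. At that looser threshold the share of all genes is not given.

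Tln1, the talin used by integrins of most cell types, was at 141 to 269 CPM in WT and 158 to 259 CPM in APP/PS1. Its log2 change was 0.05 ± 0.12 (SE, 95% interval -0.21 to 0.30, edgeR adjusted p = 0.997). Fermt1 (kindlin-1), known mainly from epithelia, was the lowest member per kb and was at 0.578 to 1.46 CPM in WT and 0.442 to 1.21 CPM in APP/PS1, on 5 to 20 counts per library. Its log2 change was -0.02 ± 0.25 (SE, 95% interval -0.54 to 0.49, edgeR adjusted p = 0.999). For both genes the genotypes overlapped over most of their range.

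No member passed the test for the NOX2 inhibitor, tested over both genotypes with edgeR's quasi-likelihood test. The share of all genes called was 0%, the count at an unadjusted p under 0.05 was 0 of 8 members, and DESeq2 called 0 members. Among the beta-2 integrins, the log2 change of inhibitor against control was -0.11 for Itgam (95% interval -0.54 to 0.31), -0.09 for Itgb2 (-0.43 to 0.24) and -0.54 for Itgal (-1.19 to 0.12). Itgal had the largest change of the 8 and the smallest unadjusted p, 0.101. It averaged 2.54 CPM ± 1.20 (SD, n = 5) in WT control and 1.52 CPM ± 0.404 (SD, n = 5) in WT inhibitor libraries, and 2.27 CPM ± 0.900 (SD, n = 2) in APP/PS1 control and 1.87 CPM ± 1.09 (SD, n = 5) in APP/PS1 inhibitor libraries. The log2 change of Itga4 was -0.17 (95% interval -0.39 to 0.05) and that of Itgb7 was 0.0013 (-0.85 to 0.85). Those of the activators were 0.04 for Fermt3 (-0.28 to 0.36), -0.18 for Fermt1 (-0.70 to 0.33) and 0.05 for Tln1 (-0.21 to 0.30). The interval of Tln1, measured on 1350 to 3208 counts, was much narrower than that of Itgb7, measured on few counts.

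The interaction, which is the inhibitor difference in APP/PS1 minus that in WT, was not called for any member (0 at an unadjusted p under 0.05 and 0 by DESeq2), beside 0% of all genes. It was -0.55 for Itgam, 0.46 for Itgal, -0.15 for Itgb2, -0.18 for Itga4, -0.08 for Itgb7, 0.19 for Fermt3, -0.04 for Fermt1 and -0.06 for Tln1 on the log2 scale. The interval of Itgam ran from -1.39 to 0.30 and that of Itgal from -0.92 to 1.83. Within single groups, 0 members passed edgeR's adjusted test in any comparison, and 0 passed by DESeq2. Between genotypes with control peptide the log2 changes of the members ran from -0.16 to 1.21, and with inhibitor from -0.12 to 0.72. The shares of all genes called higher by adjusted p were 0.0533% and 0.176%. At an unadjusted edgeR p under 0.05 there were 2 and 3 members, and the share of all genes at that looser threshold is not given. The log2 change of Itgam was 1.21 with control peptide (edgeR adjusted p = 0.335) and 0.66 with inhibitor (1.00), and that of Itgb2 was 0.87 (0.609) and 0.72 (0.453). Fermt3 had an unadjusted p of 0.0483 with inhibitor, at a log2 change of 0.41. Inhibitor against control ran from -0.42 to 0.16 in APP/PS1 and from -0.72 to 0.12 in WT, with 0 members at an unadjusted p under 0.05, 0 members by DESeq2 and 0% of all genes called in each. The genotype difference with control peptide and the inhibitor difference in APP/PS1 share the same 2 APP/PS1 control libraries.

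**Figure D2:**
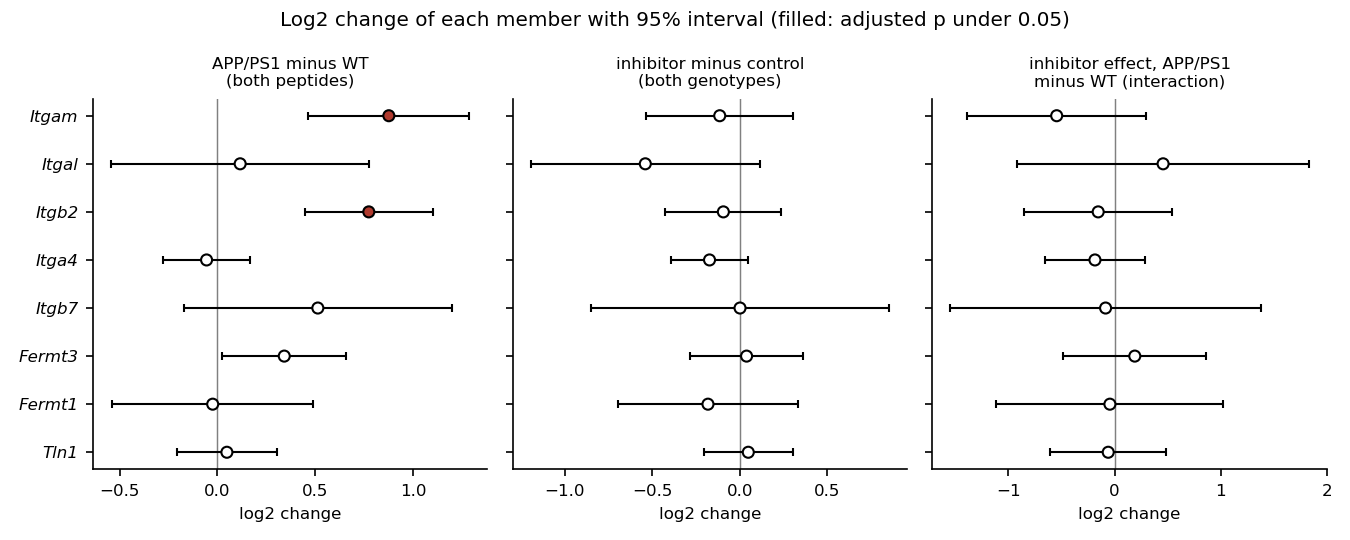
Log2 change of the 8 members (horizontal axes) for genotype, inhibitor and their interaction, with 95% intervals. Filled points have an adjusted p under 0.05: Itgam at 0.88 and Itgb2 at 0.77 for genotype, and none for the inhibitor or the interaction.

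Like the Mac-1 genes, microglia markers were higher in APP/PS1 on average. The 10 homeostatic microglia markers summed to 251 to 335 CPM in WT and 316 to 526 CPM in APP/PS1. Of these 10, 6 were called higher, beside 0.56% of all genes. Among the 6 were Cx3cr1 (log2 change 0.78, edgeR adjusted p = 0.00262) and P2ry12 (0.66, 0.0365), both receptors of resting microglia. In the 9 unmixed libraries 0 of these 6 kept the call, with log2 changes of 0.38 for Cx3cr1 and 0.39 for P2ry12 (edgeR adjusted p = 0.755 for both). P2ry12 kept its call in 5 of 17 refits without 1 library, and Cx3cr1 in all 17. The 3 APP/PS1 libraries with Itgb2 near 13 CPM were the 3 with the highest microglia marker sums, 502 CPM or more, and all 3 are among the 8 libraries with mixed sex-linked RNA. Itgam in these 3 libraries was at 4.41, 3.84 and 4.67 CPM. The highest Itgam, 6.0 CPM, was in APP/PS1 control replicate 1, at a marker sum of 413 CPM. Divided by the marker sum of its own library, Itgb2 was at 21.4 ± 3.46 (SD, n = 10) per 1000 CPM of markers in WT and at 22.9 ± 2.45 (SD, n = 7) in APP/PS1, and the ranges overlapped (16.8 to 26.8 and 20.6 to 26.1). Itgam on this scale was at 8.38 ± 2.88 (SD, n = 10) and 10.1 ± 2.68 (SD, n = 7). Fermt3 was at 17.4 ± 3.85 in WT and 14.3 ± 1.90 in APP/PS1, and Itgal at 7.36 ± 3.59 and 4.47 ± 1.82 (SD, n = 10 and 7 for each). With the mean log2 level of these markers as a covariate, the genotype change of Itgam was 0.55 and that of Itgb2 was -0.09 (edgeR adjusted p = 0.488 and 0.887), so both calls were lost. The marker level is itself higher in APP/PS1, so in that fit it takes up part of the genotype difference.

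**Figure D3:**
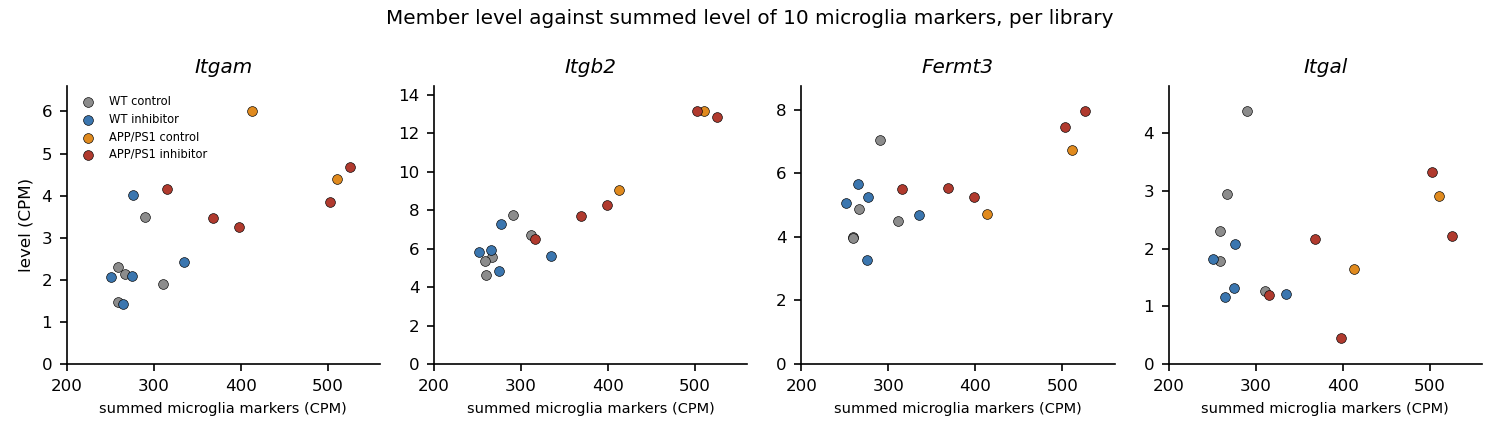
Level of Itgam, Itgb2, Fermt3 and Itgal in CPM (vertical axes) against the summed level of 10 homeostatic microglia markers in CPM (horizontal axes). Points are the 17 libraries, coloured by group. The 3 libraries with the highest marker sums also have the highest Itgb2, near 13 CPM, and Itgal spreads from 0.454 to 4.38 CPM without that order.

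Markers of circulating leukocytes were also summed. Ly6g, which defines mouse neutrophils, had 0 counts in 15 of 17 libraries and 1 count in each of the other 2, both APP/PS1. The 14 neutrophil markers summed to 11.6 to 33.7 CPM in WT and 24.0 to 41.3 CPM in APP/PS1. Most of that sum was Csf3r, the receptor for granulocyte colony-stimulating factor, which was at 8.19 to 16.7 CPM in WT and 21.1 to 28.2 CPM in APP/PS1 (log2 change 1.04, edgeR adjusted p = 4.27e-05). In the 9 unmixed libraries the log2 change of Csf3r was 1.04 again, with an edgeR adjusted p of 0.197, and with the microglia covariate it was 0.80 (0.164). Without Csf3r, the other 13 markers summed to 2.64 to 17 CPM in WT and 2.93 to 16.3 CPM in APP/PS1. The highest of these sums was in WT inhibitor replicate 2, the WT library with the highest Itgam. With the mean log2 level of the 14 neutrophil markers as a covariate both Itgam and Itgb2 were still called. Several of these markers had few counts over all libraries together, such as Ly6g with 2, Stfa2l1 with 8 and Camp with 13. That covariate is thus partly counting noise, and whether neutrophils contributed was not tested. The 10 T cell markers summed to 4.08 to 9.96 CPM, and 5 natural killer cell markers to 0 to 1.16 CPM. The 5 B cell markers summed to 4.40 to 23.4 CPM, mostly from Ighm, the immunoglobulin heavy chain gene, at 40 to 347 counts per library. The 5 monocyte markers summed to 687 to 1220 CPM, nearly all from Fn1, which vessel cells also make, and the other 4 summed to 0.869 to 4.08 CPM. The 7 perivascular macrophage markers summed to 39.1 to 115 CPM in WT and 43.1 to 83.0 CPM in APP/PS1, with 0 called by edgeR and 1 at an unadjusted p under 0.05. At that looser threshold the share of all genes is not given.

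Genes that work with the members were taken from 4 lists, also chosen with earlier results of these data known. Of 21 other integrin subunits, 19 were tested and 1 was higher in APP/PS1, beside 0.56% of all genes called higher. It was Itgax (CD11c), another alpha partner of Itgb2, up by 3.14 ± 0.27 (SE) on the log2 scale with an edgeR adjusted p of 1.15e-06. This gene was at 0.374 to 1.43 CPM in WT and 3.85 to 10.2 CPM in APP/PS1, without overlap. It also passed with control peptide alone (3.41, edgeR adjusted p = 0.000798) and with inhibitor alone (2.96, edgeR adjusted p = 0.000403). Over both peptides its call was kept in all 17 refits without 1 library and in the 9 unmixed libraries (2.87, edgeR adjusted p = 0.0131), and lost with the microglia covariate (2.20, edgeR adjusted p = 0.108). The call with control peptide alone was lost without APP/PS1 control replicate 2 (2.87). Both calls within a peptide were lost in the 9 unmixed libraries (2.91 and 2.85). Each of these fits left 1 APP/PS1 control library. Itgad, a further alpha partner of Itgb2, had a log2 change of -1.06 and was not called. WT control replicate 1 at 2.66 CPM and WT inhibitor replicate 3 at 2.24 CPM stood far above the other libraries, and the medians of Itgad were 0.206 CPM in WT and 0.369 CPM in APP/PS1. Itgb3 had a log2 change of 0.31 and was not called. The median of this list was 0.08, beside 0.0017 for all genes.

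Of 31 genes of integrin activation and signalling, all tested, 5 were higher in APP/PS1 and 0 lower, beside 0.56% of all genes called higher. The median log2 change of the list was 0.13. The 5 genes were Btk (0.87, edgeR adjusted p = 0.0148) and Syk (0.44, 0.0282), kinases of immune receptor signalling, Lcp2 (0.73, 0.00304) and Fyb (0.85, 0.0105), adaptor proteins known as SLP-76 and ADAP, and Apbb1ip (0.67, 0.00221), the Rap1 effector RIAM that brings talin to integrins. Lcp2 was at 4.18 to 6.45 CPM in WT and 6.51 to 11.2 CPM in APP/PS1, without overlap, as for 0.272% of all genes. The nearest libraries were WT inhibitor replicate 1 (69 counts) and APP/PS1 inhibitor replicate 3 (60 counts), so this gap is within counting error. Btk was at 0.910 to 1.97 CPM in WT and 1.85 to 3.91 CPM in APP/PS1, with a small overlap. These 5 genes are expressed in microglia as well as in circulating leukocytes. With the microglia covariate 0 of the 5 kept the call, at log2 changes of 0.28 for Apbb1ip, 0.34 for Btk, 0.62 for Fyb, 0.35 for Lcp2 and 0.38 for Syk (edgeR adjusted p from 0.314 to 0.607). In the 9 unmixed libraries 0 of the 5 kept it either, at 0.58, 0.65, 0.83, 0.59 and 0.44 in the same order (edgeR adjusted p from 0.319 to 0.742). That fit has fewer libraries, with 1 for APP/PS1 control, and why the calls were lost was not tested. Apbb1ip and Lcp2 kept the call in all 17 refits without 1 library. Btk lost it without APP/PS1 control replicate 2 (edgeR adjusted p = 0.116) and Fyb without APP/PS1 control replicate 1 (0.0517). Syk lost it without any 1 of 7 libraries (WT inhibitor replicates 2, 4 and 5, APP/PS1 control replicate 2, and APP/PS1 inhibitor replicates 2, 4 and 5), with an edgeR adjusted p of up to 0.133. With no filter on low counts the call of Syk was lost too (edgeR adjusted p = 0.0566).

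On the vessel side, 0 of 9 tested ligands of leukocyte integrins (11 listed) were called for genotype, with 0 at an unadjusted p under 0.05 by edgeR. The log2 changes were -0.74 for Icam1, 0.40 for Icam2 and -0.38 for Vcam1, the endothelial ligands of LFA-1, Mac-1 and VLA-4. Of 15 rolling and chemoattractant receptors, 11 were tested and 0 were called, with 3 at an unadjusted p under 0.05. At that looser threshold the share of all genes is not given. The largest log2 changes were -3.59 for Sele, -1.67 for Selp (E- and P-selectin, on which leukocytes roll) and -1.16 for Cxcr2, a neutrophil chemokine receptor. For these genes 1 WT library stood far above the rest. In WT inhibitor replicate 2, Cxcr2 was at 2.46 CPM (at most 1.05 CPM elsewhere), Sele was at 27.7 CPM and Selp at 10.8 CPM, whereas no other library exceeded 1.57 CPM of Sele or 1.16 CPM of Selp. The same library had 97.6 CPM of Icam1 and 350 CPM of Vcam1, the highest of the 17, and its Itgam of 4.02 CPM was the highest in WT. In the inhibitor comparisons and the interaction, 0 genes of the 4 lists were called by edgeR, with 0 to 2 genes per list at an unadjusted p under 0.05.

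**Figure D4:**
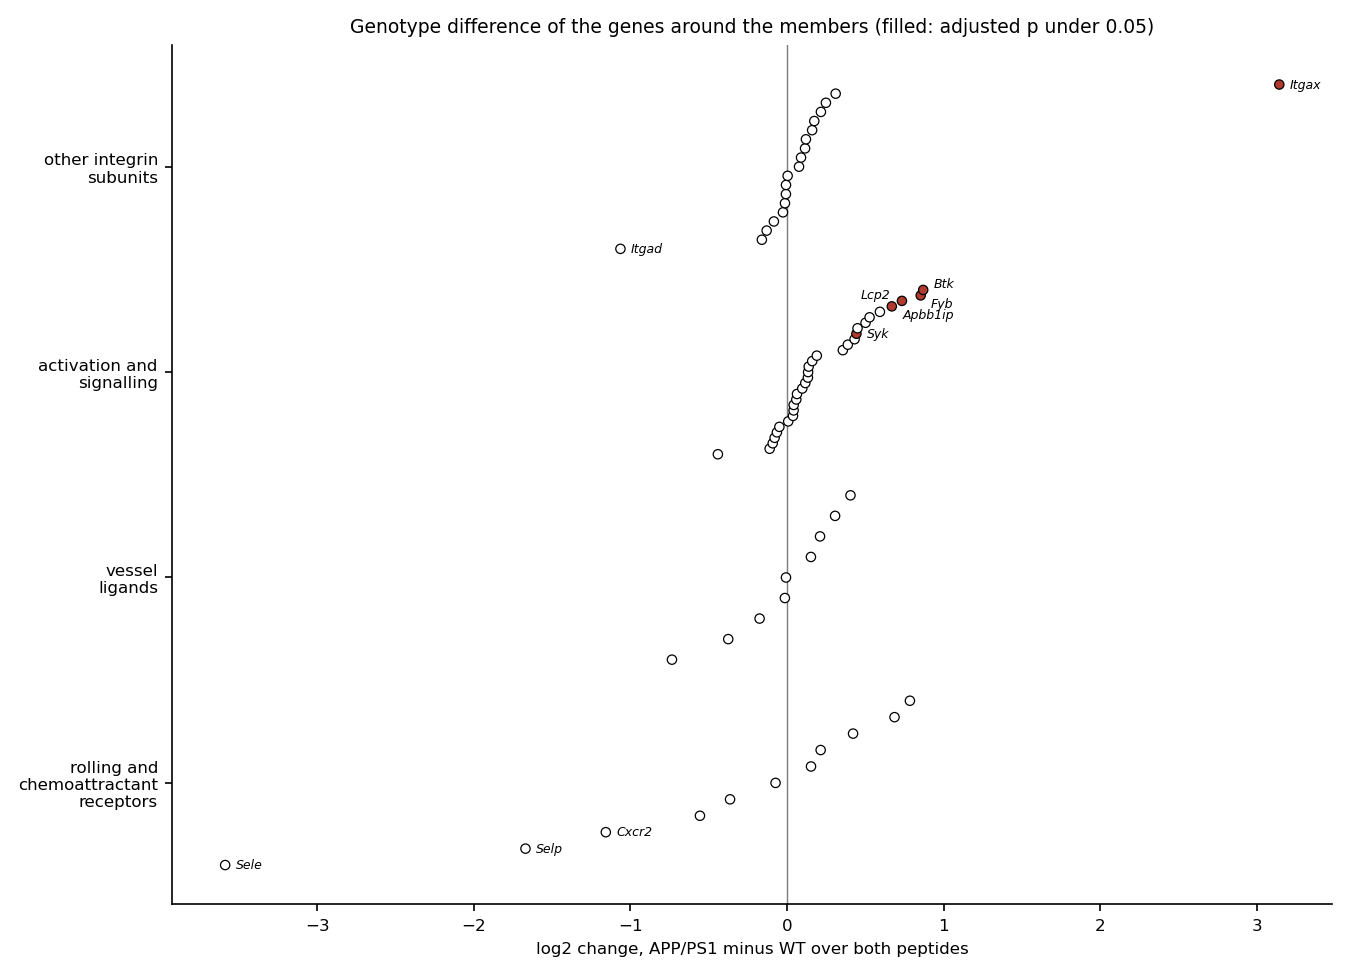
Log2 change between APP/PS1 and WT over both peptides (horizontal axis) of the tested genes in the 4 lists (rows, sorted by change within a row). Filled points have an adjusted p under 0.05. Itgax stands at 3.14, 5 activation and signalling genes lie between 0.44 and 0.87, and Sele, at -3.59, was not called.

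Fermt1 was set beside the sex-linked RNA of the libraries. It was at 0.973 to 1.46 CPM (median 1.12) in the 7 libraries with high Y-linked genes and at 0.442 to 0.901 CPM (median 0.690) in the other 10, without overlap. It was the 1 member of 8 without overlap in this split, beside 0.117% of all genes. The gap, from 0.901 to 0.973 CPM, is narrower than 3 counts, which were 0.174 to 0.390 CPM by library. Fermt1 had 5 to 20 counts per library, so the gap between the nearest libraries is within counting error. That gap does not measure the difference between the 7 and the 10 libraries as sets, for which a fit is given below. The 3 genes most alike to Fermt1 over the 17 libraries, Eif2s3y, Kdm5d and Ddx3y (Pearson r = 0.87, 0.86 and 0.85), are all Y-linked. In an edgeR fit with genotype, peptide and an indicator of high Y-linked genes, a term chosen after seeing the data, the log2 difference of Fermt1 was 0.68 ± 0.21 (SE, unadjusted p = 0.00419, adjusted p = 0.275). It was thus not called, nor was any other member, beside 0.123% of all genes called by adjusted p. At an unadjusted p under 0.05 there were 4 members (Fermt1, Tln1, Fermt3 and Itgb7). The share of all genes at that looser threshold is not given. The difference of Tln1 in the same fit was -0.34 ± 0.10 (SE, unadjusted p = 0.00436, edgeR adjusted p = 0.276). With this indicator in the model, Itgam and Itgb2 were still higher in APP/PS1, by 0.90 and 0.72 (edgeR adjusted p = 0.0468 and 0.0302). The difference of mean log2 CPM between genotypes was 0.95 for Itgam and 0.60 for Itgb2 within the 7 libraries (5 WT, 2 APP/PS1), and 0.84 and 0.70 within the other 10 (5 WT, 5 APP/PS1).

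**Figure D5:**
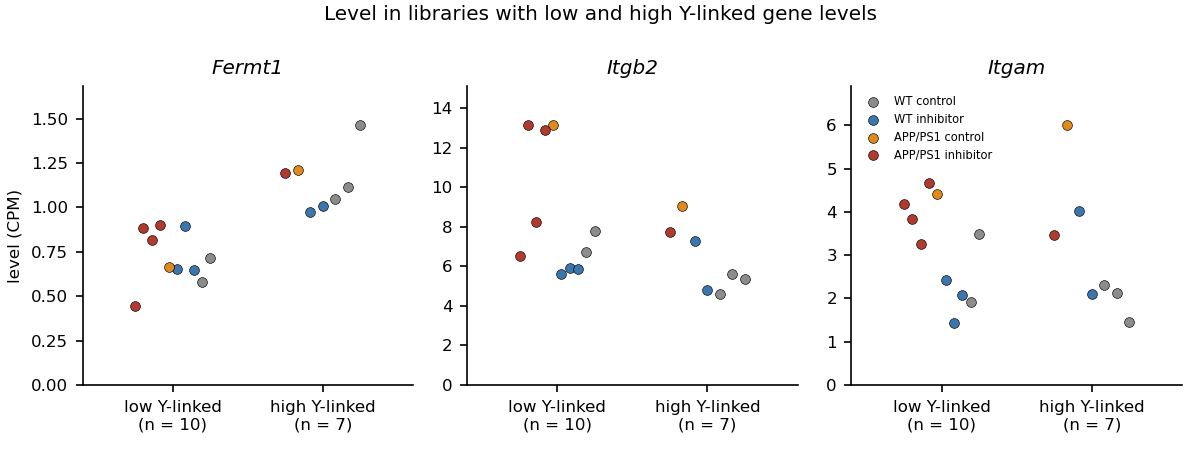
Level of Fermt1, Itgb2 and Itgam in CPM (vertical axes, from 0) in the 10 libraries with low and the 7 with high Y-linked gene levels. Points are libraries, coloured by group. Fermt1 separates the libraries between 0.901 and 0.973 CPM, a gap narrower than 3 counts in any library. Itgb2 and Itgam are higher in APP/PS1 than in WT on average on both sides.

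The patterns of the other members over the 17 libraries resembled different genes, by Pearson correlation of log2 CPM among 17213 or 17214 genes at 1 CPM or more. The libraries share group, depth and cell makeup, so these values are a description. Itgb2 was most like Vsir, C1qc and Ctss (r = 0.95, 0.95 and 0.93), an immune checkpoint receptor, a complement subunit and the lysosomal protease cathepsin S. Itgam was most like Ptprc (CD45, the pan-leukocyte phosphatase, r = 0.87), Chn2 and Dubr. Itgal was most like Podxl (podocalyxin, an endothelial surface sialomucin, r = 0.80), Acbd5 and St8sia4. Itga4 was most like Tmem184c (r = 0.89), Itgb7 like Tcirg1 (r = 0.79), Fermt3 like Nuak1 (r = 0.89) and Tln1 like Sh3bgrl (r = 0.96). No 2 members shared a gene among their 3 most alike.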

How the data were processed

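The file that the authors deposited holds raw counts, 1 row for each of 42687 Ensembl genes. Reads were handled with cutadapt, STAR, HTSeq and DESeq2 and the builds GRCh37 and mm10 are listed, per the submitters' processing notes, which give no versions or roles. The counting mode is not given in the sources used here, so reads in bases shared by 2 genes may have been dropped. Gm49368, which shares bases with Itgam, held 1 count in all 17 libraries together, so few if any such reads were assigned to it or split between the 2 genes. Libraries were made after ribosomal RNA depletion with a stranded kit, per the labels' protocols. Another 20 columns, whose names match none of the samples, were left out. Symbols from GENCODE vM21 matched 42250 IDs and not 437.

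Counts were filtered with filterByExpr, scaled by TMM and tested over all 18753 genes with edgeR 4.0.16 in R 4.3.3 (quasi-likelihood F test, Benjamini-Hochberg adjustment, threshold 0.05, intervals of 95%). An additive model gave the genotype and inhibitor comparisons, and a second one, with a mean for each group, gave the 4 comparisons within groups and the interaction. All 17 libraries entered each fit, since APP/PS1 with control peptide has 2. Levels are CPM on scaled library sizes, with a prior count of 2 on the log2 scale. A floor of 3 counts, the upper limit that a count of 0 allows, was 0.174 to 0.390 CPM and covers counting error only. All 136 pairs of libraries were compared, and 0 were identical. Replicate numbers follow sample order and pair nothing.

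Alternatives were DESeq2 size factors, DESeq2 1.42.0, no filter, a stricter filter (1 CPM in 5 libraries), microglia or neutrophil markers as a covariate, and leaving out each library. A Y-linked indicator, the 9 unmixed libraries and the unshared exon length were added after seeing the data. The fits were tested on simulated data. The members and lists were chosen with earlier results of these data known. The 8 members are always named. From each list, genes past the threshold and the 3 with the largest genotype change are named, and for each member the 3 genes most alike. Csf3r, Ly6g, Fn1, Prnp, App, Cx3cr1, P2ry12 and the Y-linked genes are named as markers or checks, and the marker sums without Csf3r or Fn1 were chosen after seeing the data.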

Additional observations from a re-analysis of the deposited data

How the results depend on the processing

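The 29 member changes printed were refitted 722 times: 637 refits kept the direction and side of the threshold, 20 lost the call and 65 turned the sign. No refit gained a call. The members called for genotype over both peptides numbered 0 to 2 when 1 library was left out, 0 with the microglia covariate and 0 in the 9 unmixed libraries, and 2 in each of the other alternatives. The genes called in all, 110, numbered 176 with DESeq2, 2 with the microglia covariate, 6 in the 9 unmixed libraries and 70 without APP/PS1 control replicate 2. In the other 6 comparisons 0 members were called under every alternative run.

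Signs turned in values that were not called, apart from that of Itgb2 with the microglia covariate. With that covariate the genotype log2 changes were -0.65 for Itgal, -0.088 for Itgb2, -0.13 for Itgb7, -0.076 for Fermt3, 0.24 for Fermt1 and -0.38 for Tln1. Itgb2 was then at -0.071 with control peptide and -0.094 with inhibitor, Fermt3 at -0.0074 with inhibitor, and the interactions of Itgb7 and Tln1 at 0.057 and 0.012. In the 9 unmixed libraries the genotype changes were -0.83 for Itgal, 0.086 for Fermt1 and -0.17 for Tln1, the inhibitor changes -0.16 for Fermt3 and -0.11 for Tln1, and the interactions -0.16 for Itgal, 0.91 for Itgb7 and 0.21 for Tln1. With the Y-linked indicator the genotype changes were 0.10 for Fermt1 and -0.0097 for Tln1, the inhibitor changes -0.14 for Itgb7, -0.027 for Fermt3 and -0.026 for Tln1, and the interaction of Fermt1 was 0.13. The inhibitor change of Itgb7 was -0.0048 with DESeq2 size factors and -0.031 with the neutrophil covariate. The cause of these shifts was not tested, and the unmixed fit also has fewer libraries, with 1 for APP/PS1 control.

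When 1 library was left out, the genotype change ranged from -0.094 to 0.27 for Itgal, -0.087 to 0.039 for Itga4, -0.15 to 0.080 for Fermt1 and -0.012 to 0.10 for Tln1. The inhibitor change ranged from -0.29 to 0.033 for Itgam, -0.15 to 0.0064 for Itgb2, -0.18 to 0.14 for Itgb7, -0.048 to 0.14 for Fermt3 and -0.0075 to 0.14 for Tln1. The interaction ranged from -0.41 to 0.13 for Itgb2, -0.55 to 0.34 for Itgb7, -0.050 to 0.46 for Fermt3, -0.38 to 0.48 for Fermt1 and -0.22 to 0.12 for Tln1. Itgb7 and Fermt1 rest on few counts, 3 to 21 and 5 to 20 per library. No paired analysis was possible because replicate numbers follow sample order.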

Other observations

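In groups of 5 libraries, 24 sets of member levels were screened for a library far from the rest by Dixon's ratio, and 0 exceeded the critical value of 0.71, where about 1.2 would by chance.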
